A study of Mus musculus with 8 samples.

Results

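The 10 genes described here are commonly used to recognise astrocytes or build their structure, and they were followed through 8 RNA libraries of mouse brain neural progenitors: Gfap, Aqp4, Gja1, Gjb6, S100b, Sparcl1, Clu, Ndrg2, Aldh1l1 and Agt. They were picked by name, with earlier results of these data known, and are 10 of the 20793 rows of the expression table. All 10 were found in it once each, and 9 of the 10 reached 1 FPKM in at least 2 libraries, which was the minimum for a test. FPKM is the number of sequenced fragments scaled to the length of the transcript and the size of the library. Every library came from cells of the strain labelled FvB/C57BL/6. The 4 differentiating libraries were kept for 5 days in neurobasal medium with B27 supplement. They were 1 with CIC targeted (named CIC-D), 1 with FUBP1 targeted (FUBP1-D) and 2 non-targeted, NT (named 7 and GFP-D). The 4 proliferating libraries grew in N2 medium with EGF and bFGF at 20 ng/ml. They were 1 with CIC targeted (CIC), 1 with FUBP1 targeted (FUBP1) and 2 NT (TRC and GFP). The treatment text, the same for all 8 libraries, speaks of lentiviral hairpins with 3 days of puromycin selection as the means of FUBP1 knockdown and names no other target, so how CIC was targeted and what the NT cells carried is not stated in the sources used here. Nor do they state whether the 2 NT libraries of a state came from separate cultures, so the p-values below rest on a spread between libraries that may be technical.

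Astrocytes are the glial cells that take up potassium, water and transmitter around synapses and blood vessels, and they arise late from the same progenitors that give rise to neurons and oligodendrocytes. Their hallmarks include a cytoskeleton of GFAP filaments, the water channel aquaporin-4 on their end-feet, and gap junctions made of connexins that join them into networks. Cytokines that signal through gp130 receptors, JAK kinases and STAT3, together with nuclear factor I (NFI) and SOX9, are known to switch on the Gfap gene and several others of the group when progenitors stop dividing. FUBP1, far upstream element-binding protein, regulates transcription and splicing, and the study's title concerns its part in the splicing of LSD1 and in terminal differentiation. CIC, capicua, is a transcriptional repressor.

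Cic lay at 25.6 FPKM in CIC-D against 32.1 to 42.0 FPKM in the 3 other differentiating libraries, and at 13.3 FPKM in CIC against 33.8 to 49.5 FPKM in the 3 other proliferating ones. Fubp1 lay at 21.6 FPKM in FUBP1-D against 24.8 and 25.4 FPKM in the NT libraries 7 and GFP-D. It lay at 34.8 FPKM in the library labelled FUBP1 against 50.2 FPKM in TRC, but at 12.4 FPKM in the library labelled GFP, the lowest of the 8 although GFP is labelled non-targeted. Results were therefore also computed without both GFP-named libraries. Summed over all rows, the libraries held 426984 to 541608 FPKM, and between 10702 and 11529 rows reached 1 FPKM. The table gives no fragment counts, so the depth is unknown. Low values were compared row by row with TRC, over rows above 0 and at most 0.2 FPKM in both libraries. The commonest ratio to TRC was 1.23 to 1.33 in the 4 differentiating libraries and 0.946 to 1.01 in the 3 other proliferating ones. Only 9.16% to 20.4% of the rows compared lay within 5% of it. The difference in this ratio moves with the state, and its part in the results was not tested.

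Promoter windows of 300 bases, 250 before and 50 after the annotated start, were at hand for 7 of the 10 genes, from RefSeq on GRCm38.p6. Each of the 4 shown stands for a pattern described below. Agt rose on differentiation and was highest in CIC-D, Gfap rose and was lowest in CIC-D, Aldh1l1 was low in both CIC-targeted libraries, and S100b was highest in CIC. Capitals mark matches, on either strand, to the STAT motif TTCNNNGAA, the NFI half-site TTGGC and the TATA box with the letters TATAAA. They are printed 5′ to 3′ on the gene's own strand, from chr8:124569657-124569956 (minus strand) for Agt, chr11:102897151-102897450 (minus strand) for Gfap, chr6:90550543-90550842 (plus strand) for Aldh1l1 and chr10:76253586-76253885 (plus strand) for S100b.
Agt: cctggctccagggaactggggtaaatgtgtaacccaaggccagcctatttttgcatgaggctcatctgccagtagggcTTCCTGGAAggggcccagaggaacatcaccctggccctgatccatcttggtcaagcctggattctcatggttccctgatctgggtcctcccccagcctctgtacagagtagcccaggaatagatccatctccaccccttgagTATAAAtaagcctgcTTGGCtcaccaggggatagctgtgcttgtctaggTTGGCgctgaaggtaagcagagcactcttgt
Gfap: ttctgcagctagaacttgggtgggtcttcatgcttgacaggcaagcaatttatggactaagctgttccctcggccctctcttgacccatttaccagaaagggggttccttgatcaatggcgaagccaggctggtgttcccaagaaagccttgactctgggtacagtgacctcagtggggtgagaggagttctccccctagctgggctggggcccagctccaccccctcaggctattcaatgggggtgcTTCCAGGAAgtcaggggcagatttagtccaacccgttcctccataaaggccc
Aldh1l1: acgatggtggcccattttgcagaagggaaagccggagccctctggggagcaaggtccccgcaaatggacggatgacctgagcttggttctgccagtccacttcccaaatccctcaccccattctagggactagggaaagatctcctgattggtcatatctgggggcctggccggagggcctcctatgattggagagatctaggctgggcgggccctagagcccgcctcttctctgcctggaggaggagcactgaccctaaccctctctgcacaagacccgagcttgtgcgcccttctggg
S100b: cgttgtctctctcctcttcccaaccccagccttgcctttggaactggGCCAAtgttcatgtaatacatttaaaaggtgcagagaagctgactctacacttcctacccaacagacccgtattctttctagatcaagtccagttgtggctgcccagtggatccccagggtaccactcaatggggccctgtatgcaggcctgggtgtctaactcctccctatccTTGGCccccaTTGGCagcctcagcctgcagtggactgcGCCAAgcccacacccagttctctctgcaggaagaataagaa

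The Agt window held a STAT match that begins 172 bases before the start, a TATA box 30 bases before it, and NFI half-sites at positions -15 and 20. The Gfap window held 1 STAT match, at position -2. S100b had 4 NFI half-sites, at -203, -29, -19 and 10, and the Aldh1l1 window held none of the motifs. The windows of Gja1 and Gjb6 held none either, and of the 3 windows of Ndrg2 2 held an NFI half-site, 1 of them with a TATA box as well. Of the 32851 RefSeq windows of this length, 8.30% held the STAT motif, 46.7% the NFI half-site and 13.6% the TATA box. The CIC octamers TGAATGAA, TGAATGGA, TCAATGAA and TCAATGGA, of which 3.84% of all windows held at least 1, were in none of the 9 windows of these genes. No matches overlapped, and a match is a description of letters, not of binding.

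The astrocyte genes split by behaviour when progenitors differentiated. Ndrg2, Aqp4, Agt, Clu and Gfap rose, while Sparcl1, Aldh1l1, Gja1 and S100b did not pass the test. The test was limma's moderated test on log2(FPKM + 1) over all 8 libraries, with state and targeted gene as terms and Benjamini-Hochberg adjustment over 11968 rows, and a gene counts as risen or fallen at an adjusted p under 0.05. By this rule 5 of the 9 genes tested rose and 0 fell, against 21.2% of all rows tested that rose and 17.7% that fell. The median difference, differentiating minus proliferating, was 2.92 log2 units over these 9 genes and 0.09 over all rows tested. Without both GFP-named libraries, an alternative chosen after seeing the data, Sparcl1 (2.485 log2 units, adjusted p = 0.0123) and Aldh1l1 (1.987, adjusted p = 0.0143) also passed. In that fit 2385 of 11968 rows rose. The shares of 21.2% and 17.7% also stand beside the counts on differentiation for each gene list below. For Ndrg2, Aqp4, Agt and Clu every differentiating library lay above every proliferating one, as did 20.1% of all rows tested. In bulk RNA a change in the number of astrocytes cannot be told apart from a change in RNA per cell.

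**Figure D1:**
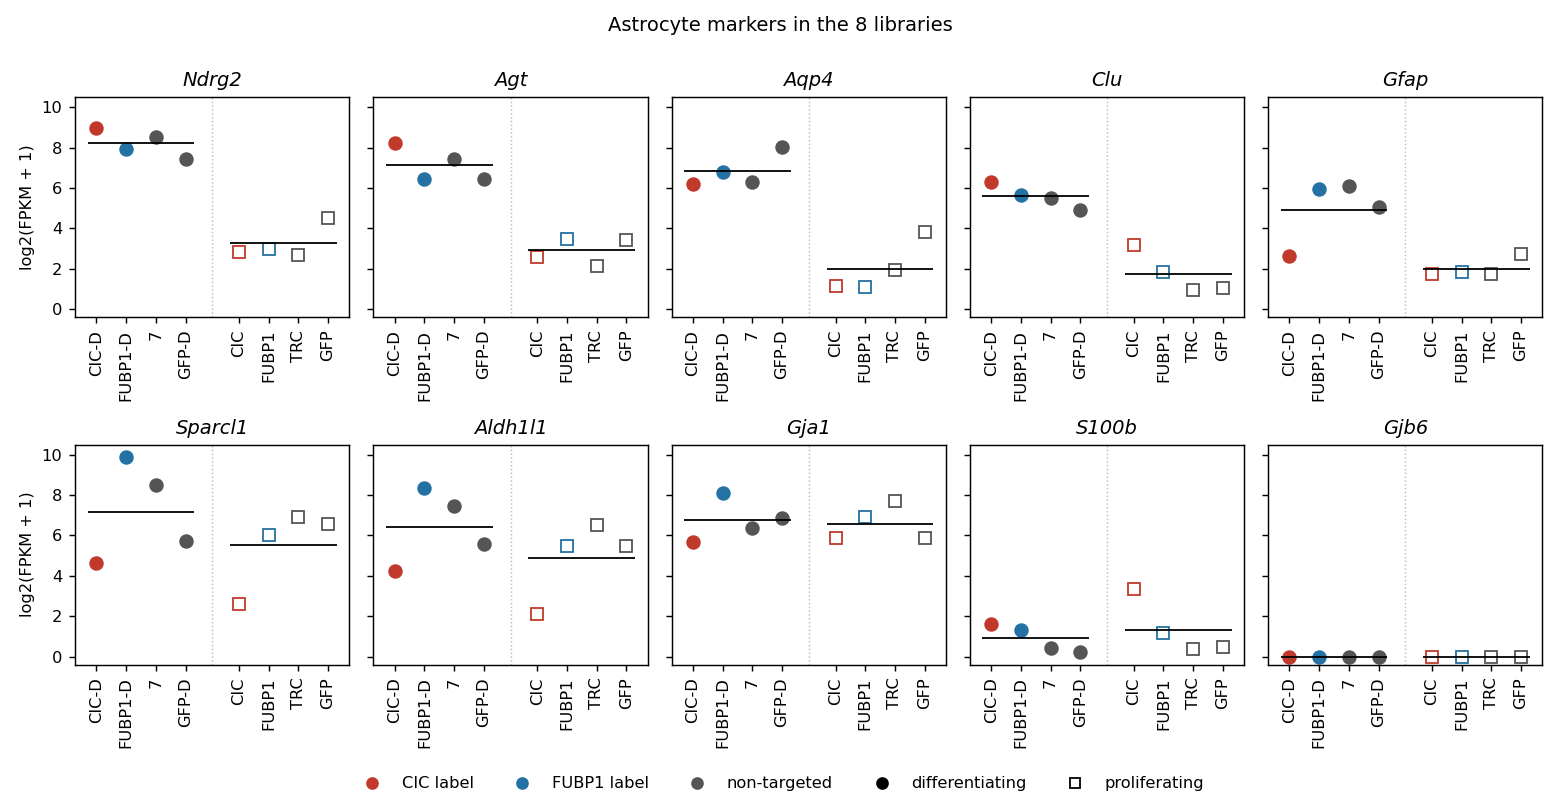
Level of each of the 10 astrocyte genes in the 8 libraries, as log2(FPKM + 1), with 1 point per library; filled circles are differentiating libraries, open squares proliferating ones, and the horizontal lines are state means (n = 4 each). The 5 genes that rose are in the upper row, where Gfap in CIC-D (5.10 FPKM) sits beside the proliferating libraries, and Gjb6 is listed at 0 in every library.

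Gfap encodes the intermediate filament protein of mature astrocytes (chr11:102748650-102758514, mm9). It measured 5.10 FPKM in CIC-D, 61.1 in FUBP1-D, 67.9 in 7 and 31.9 in GFP-D, against 2.29 in CIC, 2.54 in FUBP1, 2.36 in TRC and 5.73 in GFP. The 3 differentiating libraries other than CIC-D stood far above all proliferating ones, whereas CIC-D lay below GFP, so the states overlapped. The mean was 41.5 ± 28.8 FPKM in differentiating and 3.23 ± 1.67 FPKM in proliferating libraries (SD, n = 4 each). Gfap rose by 2.92 log2 units (SE 0.54, adjusted p = 0.00624). Among the other intermediate filament genes, 7 of 14 were tested, 0 rose and 3 fell, and these 3 were the nuclear lamins. Lmnb1 fell by 2.64 log2 units (adjusted p = 0.00172), Lmnb2 by 1.25 (adjusted p = 0.0125) and Lmna by 0.89 (adjusted p = 0.00814). Lmnb2 missed the threshold without FUBP1-D or FUBP1 (adjusted p up to 0.053). Vimentin, the filament protein that astrocytes share with progenitors, was abundant in both states. Vim lay at 2388 to 3842 FPKM in differentiating and 1666 to 3216 FPKM in proliferating libraries (adjusted p = 0.254). Nes, which encodes nestin of progenitor filaments, lay at 38.8 to 97.0 FPKM in differentiating and 36.6 to 72.3 FPKM in proliferating libraries (adjusted p = 0.852).

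Aqp4 encodes aquaporin-4, the main water channel of astrocyte end-feet (chr18:15547903-15562193, mm9). It measured 72.0 FPKM in CIC-D, 108 in FUBP1-D, 77.5 in 7 and 258 in GFP-D, against 1.20 in CIC, 1.17 in FUBP1, 2.85 in TRC and 13.3 in GFP. The states did not overlap, and in each of them the GFP-named library was the highest. The mean was 129 ± 87.3 FPKM in differentiating and 4.64 ± 5.85 FPKM in proliferating libraries (SD, n = 4 each), and the rise was 4.81 log2 units (SE 0.53, adjusted p = 0.0012). Most tested genes of the dystrophin complex, which holds the channel at the membrane, rose too, by smaller amounts. Of the 16 listed aquaporin and anchoring genes, 11 were tested, 8 rose and 0 fell. Among them Agrn (agrin, a matrix organiser of end-feet) rose by 1.55 log2 units, Sgce (a sarcoglycan) by 1.17 and Dag1 (dystroglycan) by 1.10, with adjusted p from 0.00447 to 0.0131. The dystrophin gene Dmd rose by 0.74 log2 units (adjusted p = 0.0436). Fewer of these genes, 3 to 7, rose when 1 library was left out. Dmd and Aqp11 kept an adjusted p under 0.05 only without GFP, and Sgce lost it without FUBP1-D or FUBP1 (adjusted p up to 0.062). The other water channels were mixed: Aqp11 rose by 0.79 log2 units (adjusted p = 0.0454), and the difference of Aqp1 was -1.10 (adjusted p = 0.0875).

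Gja1 and Gjb6 encode the gap junction proteins that couple astrocytes. Gja1 (chr10:56097106-56110225, mm9) measured 49.9 FPKM in CIC-D, 274 in FUBP1-D, 82.3 in 7 and 115 in GFP-D, against 57.2 in CIC, 119.7 in FUBP1, 210.5 in TRC and 56.8 in GFP. The states overlapped throughout, and TRC, a proliferating library, was the second highest of the 8. Mean levels were 130.3 ± 99.4 FPKM in differentiating and 111 ± 72.6 FPKM in proliferating libraries (SD, n = 4 each). The difference was 0.16 log2 units with a 95% interval from -0.85 to 1.18 (adjusted p = 0.787). Gjb6 (chr14:57742138-57752448, mm9) was listed at 0 in all 8 libraries and could not be tested. A listed 0 can be a failed estimate here, since Actr3 in GFP-D, Nfe2l1 in CIC-D and Gtf2i in TRC were listed at 0 while all other libraries had over 5 FPKM of them. Its close relative Gjb2 was listed at 0 in 7 libraries and lay at 0.02 FPKM in the other. Of 20 further connexin, pannexin and junction scaffold genes, 5 were tested and none of these passed the test in either direction. Gjc3, a connexin gene of oligodendrocytes, lay at 40.3 and 41.1 FPKM in CIC-D and FUBP1-D and at 80.5 FPKM in CIC, but at 5.86 and 5.10 FPKM in GFP-D and GFP. Gjc1 reached 15.5 FPKM in GFP-D and 5.68 FPKM in GFP and stayed at or below 0.281 FPKM in the other libraries.

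S100b encodes a calcium-binding protein that astrocytes secrete, and it is also made by cells of the oligodendrocyte lineage. It had the lowest mean FPKM of the 9 tested genes in each state, but in CIC only Gja1 was higher (chr10:75716581-75724064, mm9). Its levels were 2.08 FPKM in CIC-D, 1.53 in FUBP1-D, 0.347 in 7 and 0.188 in GFP-D, against 9.16 in CIC, 1.24 in FUBP1, 0.284 in TRC and 0.403 in GFP. The CIC-targeted library was the highest in each state and the NT libraries were below 1 FPKM in both. Differentiating minus proliferating, the difference was -0.43 log2 units with a 95% interval from -1.21 to 0.35 (adjusted p = 0.331). Other S100 genes were more abundant. Of 13 listed, 8 were tested, 3 rose and 0 fell. S100a1 rose by 1.83 log2 units (adjusted p = 0.00172), with 73.5 to 144 FPKM in differentiating and 24.3 to 37.8 FPKM in proliferating libraries. S100a13 rose by 1.07 log2 units and S100a11 by 0.74, and S100a11 did not pass without FUBP1-D or FUBP1 (adjusted p up to 0.0634).

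Sparcl1, Clu and Agt encode proteins that astrocytes secrete. Sparcl1 encodes hevin, a matrix protein that promotes synapse formation (chr5:104508128-104543107, mm9). It measured 23.9 FPKM in CIC-D, 933 in FUBP1-D, 359 in 7 and 51.5 in GFP-D, against 5.09 in CIC, 63.2 in FUBP1, 121 in TRC and 95.4 in GFP. It was the gene with the widest spread among differentiating libraries, 39.1-fold between FUBP1-D and CIC-D, and it lay lower in GFP-D than in GFP. The difference on differentiation was 1.64 log2 units (SE 0.75, adjusted p = 0.117), and without GFP-D it was 2.46 log2 units and passed the test (adjusted p = 0.00857).

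Clu encodes clusterin, an extracellular chaperone and lipid carrier (chr14:66587320-66600382, mm9). It measured 78.2 FPKM in CIC-D, 50.1 in FUBP1-D, 43.8 in 7 and 29.3 in GFP-D, against 8.01 in CIC, 2.60 in FUBP1, 0.953 in TRC and 1.09 in GFP. The order of the targeted genes was the same in both states, with the CIC-targeted library first, the FUBP1-targeted one next and the NT libraries last. Clu rose by 3.84 log2 units (SE 0.24, adjusted p = 0.000577), the smallest p of the group and the tenth smallest of all rows tested.

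Agt encodes angiotensinogen, the precursor of the angiotensin peptides, which astrocytes make in the brain (chr8:127080487-127093607, mm9). It measured 301 FPKM in CIC-D, 86.7 in FUBP1-D, 171 in 7 and 86.2 in GFP-D, against 4.98 in CIC, 10.3 in FUBP1, 3.43 in TRC and 9.63 in GFP. The lowest differentiating library was 8.41-fold above the highest proliferating one, the widest such gap of the 10 genes. Agt rose by 4.23 log2 units (SE 0.48, adjusted p = 0.00122). Of the 17 renin-angiotensin genes listed, 7 were tested. Ren1, the renin gene, and Agtr1a, a receptor gene, were not among these: they were listed at 0 in all but 1 and 2 libraries and at or below 0.0372 FPKM in those. Agtrap, which encodes a receptor-associated protein, rose by 0.89 log2 units (adjusted p = 0.0142), and Prep, which encodes a peptidase that cleaves angiotensins, fell by 1.23 (adjusted p = 0.0158). Agtrap missed the threshold without FUBP1-D or FUBP1 (adjusted p up to 0.0717) and Prep without CIC-D or CIC (up to 0.0527).

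Of 19 listed SPARC family and other secreted astrocyte genes, 15 were tested, 4 rose and 2 fell, where 21.2% of all rows tested rose and 17.7% fell. With 1 library left out, 3 to 6 of these genes rose and 0 to 2 fell. Thbs1, which encodes the synapse-promoting thrombospondin, rose by 2.72 log2 units (adjusted p = 0.00248) and Cntf, a gp130 cytokine gene, by 1.95 (adjusted p = 0.0128). Tnc, which encodes the matrix protein tenascin-C, fell by 3.57 log2 units (adjusted p = 0.0158). Without CIC-D or CIC, Tnc missed the threshold (adjusted p up to 0.0606), as Cntf did without both GFP-named libraries (adjusted p = 0.0544). Sparc, the nearest relative of Sparcl1, lay at 893 to 1309 FPKM in differentiating and 351 to 1381 FPKM in proliferating libraries, and its difference of 0.90 log2 units did not pass (adjusted p = 0.088). Among 9 genes for clusterin receptors and related chaperones, 5 were tested, 1 rose and 1 fell. Lrp2, encoding the receptor megalin, rose by 1.48 log2 units (adjusted p = 0.0399). Lrp2 missed the threshold in 6 of the 8 fits with 1 library left out, those that kept both 7 and GFP-D (adjusted p up to 0.0924).

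Ndrg2 encodes a cytoplasmic protein of mature astrocytes that is linked to growth arrest (chr14:52524946-52533163, mm9). It measured 507 FPKM in CIC-D, 245 in FUBP1-D, 370.2 in 7 and 170.5 in GFP-D, against 6.18 in CIC, 6.88 in FUBP1, 5.45 in TRC and 22.0 in GFP. Its mean of 323 ± 148 FPKM in differentiating and 10.1 ± 7.94 FPKM in proliferating libraries (SD, n = 4 each) gave the largest ratio of the 10 genes, 31.9-fold. Ndrg2 rose by 4.96 log2 units (SE 0.49, adjusted p = 0.000896). All 3 of its relatives were tested. Ndrg1, a stress-responsive member, rose by 2.30 log2 units (adjusted p = 0.00938) and Ndrg4 by 1.45 (adjusted p = 0.0204). Ndrg4 missed the threshold without any 1 of CIC-D, CIC, FUBP1-D, FUBP1 or TRC (adjusted p up to 0.075).

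Aldh1l1 encodes the cytosolic enzyme that oxidises formyl-tetrahydrofolate and is used as a pan-astrocyte marker (chr6:90500842-90549165, mm9). It measured 17.6 FPKM in CIC-D, 328 in FUBP1-D, 172 in 7 and 47.3 in GFP-D, against 3.28 in CIC, 42.9 in FUBP1, 89.6 in TRC and 43.7 in GFP. It was already plentiful in 3 proliferating libraries, and CIC-D lay below all of these 3. The difference on differentiation was 1.52 log2 units (SE 0.56, adjusted p = 0.0641). It passed the test without GFP-D (2.09, adjusted p = 0.00999) or without TRC (1.92, adjusted p = 0.0316). Of 17 other genes of folate metabolism, 16 were tested, 0 rose and 8 fell, and 6 to 10 fell when 1 library was left out. The largest falls were those of Mthfd2 by 2.87 log2 units, Shmt2 by 2.60 and Shmt1 by 2.21, with adjusted p from 0.00108 to 0.0019. Aldh1l2, the mitochondrial counterpart of Aldh1l1, lay at 5.36 to 9.77 FPKM in differentiating libraries, at 94.9 FPKM in CIC and 72.0 FPKM in GFP, and below 10 FPKM in FUBP1 and TRC (adjusted p = 0.118).

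With the NT libraries alone on both sides, Clu and Agt still passed the test. Clu rose by 4.19 log2 units (SE 0.32, adjusted p = 0.0435) and Agt by 4.16 (SE 0.55, adjusted p = 0.0441), where 0.577% of all rows tested rose. Neither passed when 7, GFP-D or TRC was left out, with adjusted p from 0.143 to 0.227. Both also missed the threshold with a pseudocount of 5 (adjusted p = 0.0624 each) and with no filter on low values (0.158 for Clu and 0.16 for Agt). Gfap (3.32 log2 units, adjusted p = 0.0533), Ndrg2 (4.37, adjusted p = 0.0549) and Aqp4 (4.26, adjusted p = 0.0679) were just short of the threshold. For the 5 genes that rose, the GFP-named libraries differed from each other by less than 7 did from TRC, with GFP-D 5.57-fold above GFP for Gfap and 7.75-fold for Ndrg2, and 7 at 28.7-fold and 67.9-fold above TRC. For Sparcl1, GFP-D was at 0.54 times the level of GFP and 7 at 2.97 times that of TRC.

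The differentiating library with CIC targeted stood at one end or the other of its state for all 9 tested astrocyte genes. CIC-D was the lowest of the 4 for Gfap, Sparcl1, Aldh1l1, Gja1 and Aqp4 and the highest for Agt, Ndrg2, Clu and S100b, where 29.7% of all rows tested had CIC-D lowest and 25.4% had it highest. For Gfap, Sparcl1 and Aldh1l1 it lay more than 1 log2 unit below each of the 3 others, as it did for 1.45% of all rows. For none of the 10 genes did it lie more than 1 log2 unit above each of the others, as it did for 0.902% of rows. None of the 9 differences passed limma's test, in which 0.00836% of rows were called higher in CIC-D and 0.0334% lower. That is 5 rows in all, and 708 had an unadjusted p under 0.05, among them 4 of the 9 astrocyte genes. CIC-D is a single library and is assumed in the fit to vary like the others, and the library with FUBP1 targeted is counted among the 3 it is set against.

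Of these genes Gfap had the smallest p. Its level in CIC-D was 9.51% of the mean of the 3 other differentiating libraries (53.6 ± 19.1 FPKM, SD, n = 3), and the lowest of the 3, GFP-D, was 6.26-fold above CIC-D. The difference was -3.09 log2 units with a 95% interval from -4.38 to -1.81, an unadjusted p of 0.000782 and an adjusted p of 0.233. Without both GFP-named libraries, an alternative chosen after seeing the data, it was -3.42 log2 units. Against NT alone it was -2.965, and for CIC across both states -1.749. Within the CIC-targeted cells, Gfap was 2.23-fold higher in CIC-D than in CIC, while FUBP1-D was 24.1-fold above FUBP1, 7 was 28.7-fold above TRC and GFP-D 5.57-fold above GFP.

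Sparcl1 in CIC-D was at 5.33% of the mean of the other 3 libraries, and Aldh1l1 at 9.66%. Those 3 libraries themselves ranged 18.1-fold for Sparcl1 and 6.94-fold for Aldh1l1, with GFP-D the lowest of them. The differences were -3.39 log2 units (SE 1.37, adjusted p = 0.832) and -2.91 (SE 0.97, adjusted p = 0.78). Gja1 was at 31.8% of the mean of the others (-1.44 log2 units, SE 0.83, adjusted p = 0.88). Aqp4 in CIC-D was at 92.9% of its level in 7, so its place as the lowest rested on FUBP1-D and GFP-D.

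In the other direction, Agt in CIC-D was 2.63-fold above the mean of the other 3 libraries and 1.76-fold above the highest of them, library 7. The difference was 1.46 log2 units with a 95% interval from 0.0019 to 2.93 (adjusted p = 0.832). Ndrg2 was 1.94-fold and Clu 1.90-fold above the mean of the others, and S100b 3.04-fold, with adjusted p between 0.877 and 0.893. CIC-D thus held the highest Agt and the lowest Gfap of the differentiating state.

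**Figure D2:**
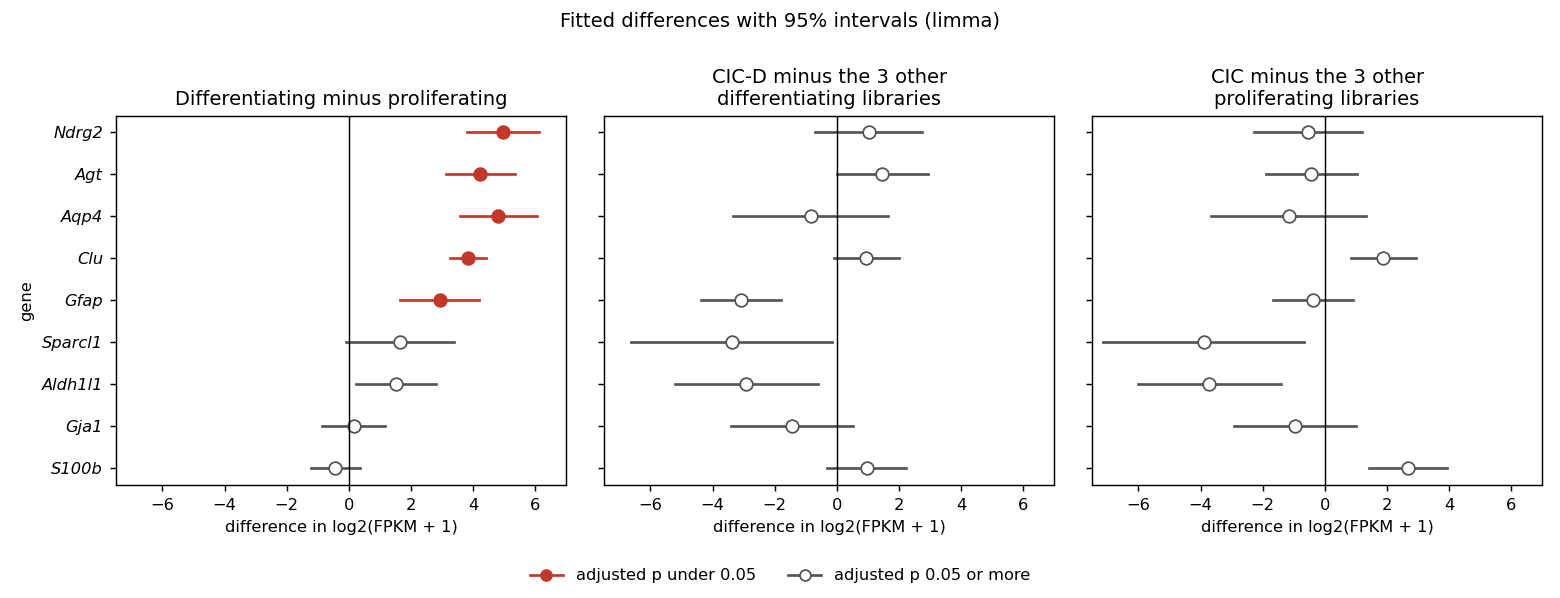
Fitted differences in log2(FPKM + 1) with 95% intervals from limma for the 9 tested astrocyte genes, as differentiating minus proliferating (left), CIC-D minus the 3 other differentiating libraries (middle) and CIC minus the 3 other proliferating libraries (right); red points passed an adjusted p of 0.05. In the middle panel Gfap (-3.09), Sparcl1 (-3.39) and Aldh1l1 (-2.91) lie farthest to the left, and in the right panel Sparcl1 (-3.90) and Aldh1l1 (-3.72) do.

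In the proliferating library with CIC targeted, Sparcl1 and Aldh1l1 were likewise the lowest of their state, and S100b and Clu the highest. Sparcl1 in CIC was at 5.47% and Aldh1l1 at 5.58% of the mean of the 3 other proliferating libraries, and the lowest of these was 12.4-fold and 13.1-fold above CIC. Both lay more than 1 log2 unit below each of the others, as did 4.40% of all rows tested. The differences were -3.90 log2 units (SE 1.37, adjusted p = 0.181) for Sparcl1 and -3.72 (SE 0.97, adjusted p = 0.11) for Aldh1l1. S100b was 14.3-fold and Clu 5.17-fold above the mean of the others, with differences of 2.67 log2 units (SE 0.53, adjusted p = 0.0682) and 1.88 (SE 0.44, adjusted p = 0.0891). None of the 9 genes passed, where 0.150% of rows were called higher and 0.409% lower in CIC. Without both GFP-named libraries, the differences in CIC were 2.58 log2 units for S100b, -3.86 for Sparcl1 and -3.88 for Aldh1l1. Gfap, low in CIC-D, was not apart in CIC, where it lay at 96.8% of the lowest of the 3 other libraries (-0.39 log2 units, 95% interval from -1.68 to 0.89). The CIC difference itself was compared between states. Gfap had the smallest p of the 9 (-2.70 log2 units, SE 0.76, unadjusted p = 0.00993, adjusted p = 0.4), and none passed, where 0.0167% of rows, 2 in all, were called lower. For Sparcl1 and Aldh1l1 the difference between states was 0.51 (95% interval from -4.07 to 5.10) and 0.81 log2 units (95% interval from -2.46 to 4.07).

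With FUBP1 targeted, no astrocyte gene passed the test against NT over both states, and neither did any other row (0% called higher and 0% lower, with 256 rows at an unadjusted p under 0.05). FUBP1-D held the highest Sparcl1, Aldh1l1 and Gja1 of all 8 libraries. Sparcl1 in FUBP1-D was 2.60-fold above 7 and 18.1-fold above GFP-D, while in the library labelled FUBP1 it was at 0.52 times TRC and 0.66 times GFP. The fitted FUBP1 minus NT difference was 1.01 log2 units for Sparcl1 (95% interval from -1.13 to 3.15), 0.66 for Aldh1l1 (from -0.93 to 2.24) and 0.80 for Gja1 (from -0.44 to 2.05). For Gfap it was -0.02 (from -1.57 to 1.52). S100b and Clu had differences of 0.87 (from -0.08 to 1.82) and 0.65 log2 units (from -0.04 to 1.35), with the FUBP1-targeted library above both NT libraries in each state. The intervals reach beyond 1 log2 unit for every one of these genes, and the library labelled GFP, which had the lowest Fubp1, is on the NT side.

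The relative order of the astrocyte genes differed from library to library. Sparcl1 was the most abundant of the 10 in FUBP1-D, Ndrg2 in CIC-D and in 7, and Aqp4 in GFP-D. In CIC-D Ndrg2, Agt and Clu led, and Sparcl1, Aldh1l1 and Gfap were the sixth to eighth. In FUBP1-D Sparcl1, Aldh1l1 and Gja1 led, and Clu was the eighth. Among proliferating libraries Gja1 led in CIC, FUBP1 and TRC and Sparcl1 in GFP. The FPKM of the 10 genes summed to 1057 in CIC-D, 2088 in FUBP1-D, 1344 in 7 and 789 in GFP-D, against 97.4 in CIC, 251 in FUBP1, 436 in TRC and 248 in GFP. CIC-D therefore lay inside the range of the differentiating state in total, and CIC lay below all other libraries.

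Over the 8 libraries the genes fell into 2 sets that varied alike. Sparcl1 and Aldh1l1 had a Pearson correlation of 0.99 on the log2 scale, and Gja1 went with them at 0.67 and 0.71. Ndrg2, Agt, Clu and Aqp4 had correlations of 0.78 to 0.98 with each other and of -0.11 to 0.08 with Gja1. Gfap lay between, at 0.68 to 0.83 with these 4 genes and at 0.70 and 0.69 with Sparcl1 and Aldh1l1. S100b was negatively correlated with all but Clu (0.12). These correlations are descriptions over 8 libraries that share a table and fall into 2 states, so the difference between states sets many of them.

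**Figure D3:**
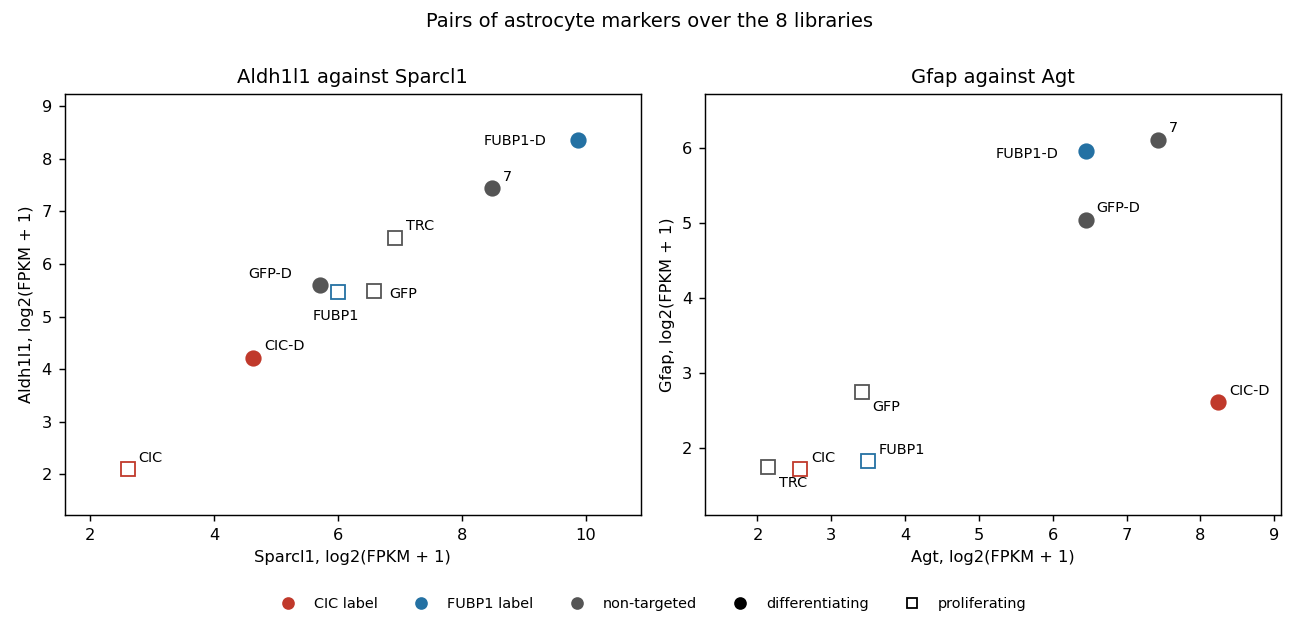
Aldh1l1 against Sparcl1 (left) and Gfap against Agt (right) in the 8 libraries, as log2(FPKM + 1), with 1 labelled point per library. Sparcl1 and Aldh1l1 rank the libraries almost alike (r = 0.99) across both states, while CIC-D, with the highest Agt (301 FPKM) and a Gfap of 5.10 FPKM, stands away from the other differentiating libraries on the right.

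Of all other rows tested, those most like Sparcl1 and Aldh1l1 included Wdr31, with correlations of 0.97 and 0.98. The rows most like Gfap were Ccdc164 (0.99), Pgf (0.98) and Atp2b4 (0.98), and all 3 were lowest in CIC-D among the differentiating libraries. Atp2b4, which encodes a plasma membrane calcium pump, lay at 0.428 FPKM in CIC-D against 5.13 to 8.40 FPKM in the 3 others. Pgf, which encodes placental growth factor, lay at 4.88 FPKM in CIC-D against 7.38 FPKM or more. Aqp4 was most like Gm2a, Ccdc157 and Itm2c (0.99 each), and Ndrg2 was much like Creb3l4 and the clock gene Per3 (1.00 each). For Agt these were Zfp383, Klc1 and Dhx35 (0.99 each), and for Clu they were Vamp2, Hspg2 and Mro (0.98 to 0.99). S100b was most like Apmap (0.96), Fuom (0.95) and Bcl7b (0.94), which were all highest in CIC, and Gja1 most like Dnajc3 (0.96), Abcb9 (0.95) and Mcm9 (0.93). The mean of the 9 genes, each centred on the log2 scale, was most like Acad12, Pex11c, Synpo2, D3Ertd254e and Spag8 (0.99 to 1.00). All these rows were picked for likeness over the same 8 libraries, so a shared lowest or highest library is in part set by the choice.

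The wider set of astrocyte genes moved with the state in the direction of the 5 genes that rose. Of 50 other astrocyte genes, 46 were tested, 27 rose and 0 fell, with a median difference of 1.57 log2 units against 0.09 over all rows. The 4 largest rises were those of Pla2g7, a secreted phospholipase gene, by 5.85 log2 units (adjusted p = 0.00891), Apoe, the main lipid carrier of astrocytes, by 4.12 (adjusted p = 0.00716), Ttyh1, a chloride channel gene, by 3.63 (adjusted p = 0.000584) and Mmd2 by 3.62 (adjusted p = 0.00462). Apoe measured 3624 FPKM in CIC-D, 970.1 in FUBP1-D, 1493 in 7 and 2180.1 in GFP-D, against 324 in CIC, 53.8 in FUBP1, 18.9 in TRC and 354 in GFP. Thus CIC-D had the highest Apoe beside the lowest Gfap. In CIC-D against the other differentiating libraries, 0 of these 46 genes passed in either direction, and their median difference was 0.31 log2 units.

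Of 37 listed regulators of astrocyte genes, 35 were tested, 9 rose and 3 fell on differentiation. Of all rows tested, 21.2% rose and 17.7% fell. With 1 library left out, 6 to 11 of the regulators rose and 3 to 5 fell. Cntfr, the receptor gene for ciliary neurotrophic factor, rose by 1.96 log2 units (adjusted p = 0.0098). Hes1, a Notch target that maintains progenitors, fell by 2.02 (adjusted p = 0.00483), Dnmt1, the maintenance DNA methyltransferase, by 1.57 (adjusted p = 0.00275), and Sox9 rose by 1.51 (adjusted p = 0.00166). Stat3 lay at 65.9 to 83.7 FPKM in differentiating and 30.9 to 62.5 FPKM in proliferating libraries and did not pass (adjusted p = 0.0763). No gene of this list or of the 10 other pathway lists passed in CIC-D against the other differentiating libraries. The regulator Atf3, a stress-induced transcription factor gene, was higher in CIC, with 82.2 FPKM against 0.943 to 2.01 FPKM in the other proliferating libraries (5.13 log2 units, adjusted p = 0.00467). Dtna, which encodes dystrobrevin of the complex that anchors aquaporin-4, was also higher in CIC, with 35.3 FPKM against 9.03 to 11.2 FPKM (1.71 log2 units, adjusted p = 0.0409). Dtna missed the threshold without FUBP1-D, FUBP1, 7, GFP-D or TRC (adjusted p up to 0.122). Over all rows the median of CIC minus the others was -0.09 log2 units, and 0.02 after quantile scaling, where 3 rows were higher and 5 lower in CIC in place of 18 and 49.

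**Figure D4:**
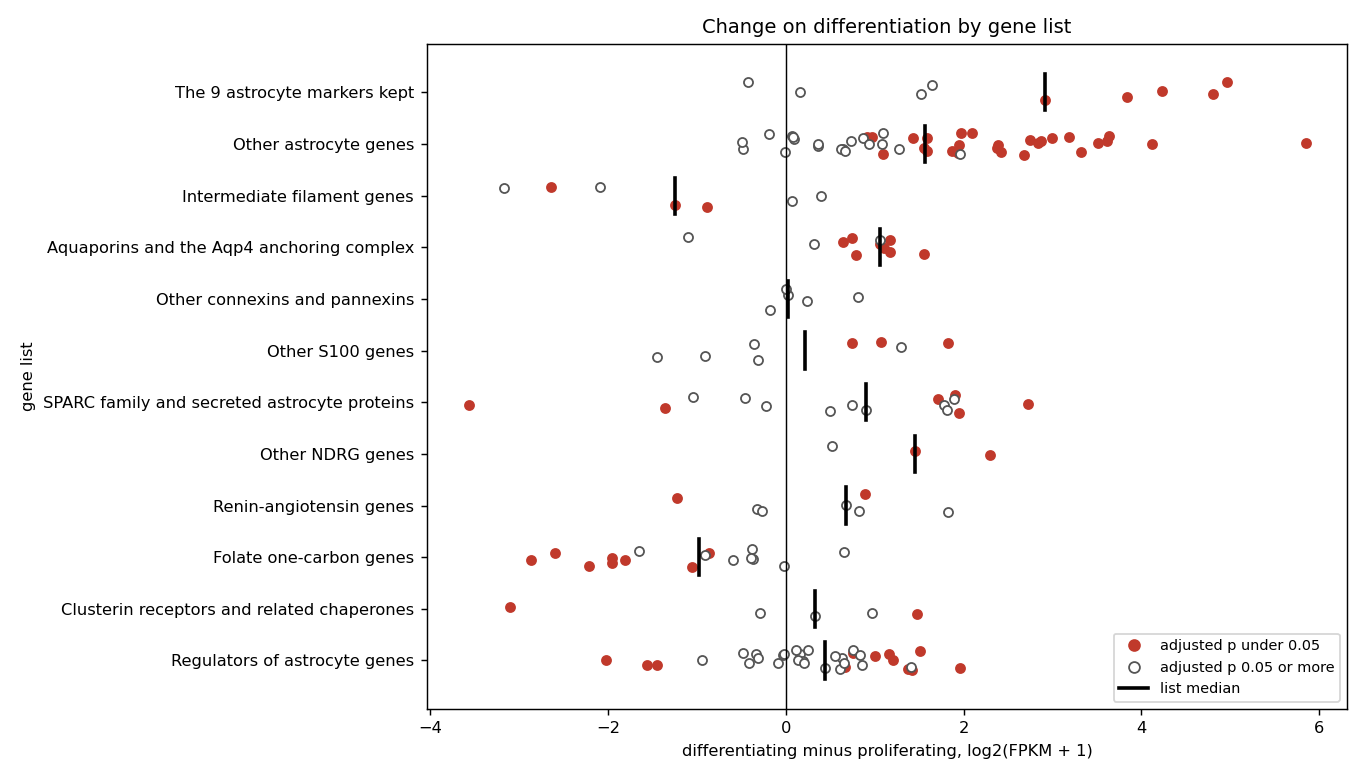
Difference on differentiation (differentiating minus proliferating, log2(FPKM + 1)) for the 9 tested astrocyte genes and each tested gene of 11 related gene lists, with 1 point per gene, red where the adjusted p was under 0.05, and a bar at each list's median. Other astrocyte genes lie mostly to the right (27 rose, 0 fell) and folate one-carbon genes mostly to the left (0 rose, 8 fell).

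Markers of other cell types were present beside the astrocyte genes. Summed FPKM of 13 progenitor and cell cycle markers was 549.7 to 1080.2 in differentiating and 1825 to 3427 in proliferating libraries, and of the 12 tested 0 rose and 6 fell. Oligodendrocyte lineage markers (8 of 16 tested, 2 rose, 3 fell) summed to 537 to 1137 FPKM in differentiating and 719 to 1486 FPKM in proliferating libraries, with Olig1 the most abundant. When 1 library was left out, 1 to 3 of them rose and 1 or 2 fell. Of those that fell, Olig1 missed the threshold without any 1 of FUBP1-D, FUBP1, 7, GFP-D, TRC or GFP (adjusted p up to 0.0876), and Ugt8a without any 1 of CIC-D, CIC, FUBP1-D, FUBP1, GFP-D or TRC (up to 0.0877). Neuron markers (8 of 18 tested, 1 rose, 1 fell) summed to 47.8 to 79.1 FPKM in differentiating and 69.7 to 681 FPKM in proliferating libraries, and with 1 library left out 0 or 1 rose and 1 or 2 fell. Ependymal markers (5 of 11 tested, 4 rose, 0 fell) were led by Foxj1. They summed to 44.7 to 59.3 FPKM in differentiating and 4.52 to 13.3 FPKM in proliferating libraries. With 1 library left out 3 to 5 of them rose, and Dynlrb2 missed the threshold without CIC-D or CIC. Of the microglial markers, C1qa, C1qb and C1qc were listed at 0 throughout. Endothelial markers never summed to more than 5.59 FPKM, with Cldn5 listed at 0. Mesenchymal markers summed to 3.52 FPKM in CIC-D, the lowest of the 8 libraries, and to at most 69.8 FPKM in GFP. In CIC-D the progenitor (549.7 FPKM) and neuron (47.8 FPKM) sums were the lowest and the ependymal sum (59.3 FPKM) the highest of the differentiating state. The part of these cell types in the results for the astrocyte genes was not tested.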

How the data were processed

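The authors deposited 1 table of FPKM values, with 1 row per gene and 1 column per library. Its header names no unit, and FPKM was taken from the values and from Cufflinks in the submitters' processing notes. Per the submitters' processing notes the build was mm9 and the tools were bcl2fastq 2.17, cutadapt, TopHat2 2.0.11 and Cufflinks 2.1.1. The annotation, the use of strand and any normalization are not given in the sources at hand. RefSeq loci that are not in the table overlap Aqp4, Sparcl1 and Aldh1l1, so their reads cannot be assigned with certainty. The starts listed in the table count from 0, so 1 was added. The depth is unknown.

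FPKM values were used as deposited. The 11968 rows with at least 1 FPKM in at least 2 libraries were tested with limma 3.58.1 in R 4.3.3 on log2(FPKM + 1), with a trend in the variance, two-sided tests and Benjamini-Hochberg adjustment over all of them at 0.05. Fold changes on this scale understate those of low genes. Differentiation and the FUBP1 label came from an additive fit of state and targeted gene (4 residual degrees of freedom), the NT comparison from a fit of all group means (2 residual degrees of freedom), and the CIC comparisons from a fit with CIC-D, the other differentiating libraries, CIC and the other proliferating libraries (4 residual degrees of freedom). Groups follow the treatment label. The fits were run on simulated data with independent noise, equal across libraries within a row. Such data cannot show whether CIC-D or CIC varies like the other libraries. Replicate numbers were given in order of deposit and do not pair samples.

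The members, gene lists and tests were chosen with earlier results of these data known, and the motifs and the promoters shown after the values were seen. Every member is named, and per list at most the 4 called genes with the largest change and relatives of a member. Stat3, Apoe's values by library, Atf3 and Dtna were singled out after their values were seen. A few genes that this rule would name, and the summed level of the microglial markers, are not reported here. Likeness is Pearson's r over the 8 libraries. Alternatives were the pseudocount (0.1 and 5), no filter, quantile and median-of-ratios scaling, and no variance trend. Further ones were leaving out each library, other sets of libraries, and blocks of libraries paired by name, without the NT libraries that have no such pair.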

Additional observations from a re-analysis of the deposited data

How the results depend on the processing

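The 5 genes that rose on differentiation rose in all alternatives run for that comparison, and the direction of each gene in CIC-D against the other differentiating libraries held in all of its alternatives. Rows called on differentiation numbered 4647, and 2477 to 4857 when 1 library was left out. Within NT the 175 called rows became 0 with a pseudocount of 5, 0 with no filter, 279 with quantile scaling and 0 to 442 with 1 library left out. For CIC-D the 5 called rows became 13 with a pseudocount of 0.1, 10 with a pseudocount of 5, 35 with no filter, 2 against NT alone, 0 in the differentiating libraries alone, 13 over both states and 1 to 5 with 1 library left out. For CIC the 67 (18 higher, 49 lower) became 214 with a pseudocount of 0.1, 146 with no filter, 8 (3 higher, 5 lower) with quantile scaling, 2 to 865 with 1 library left out, and 1328 without both GFP-named libraries, an alternative chosen after seeing the data. The 2 rows that differed between states became 1 with a pseudocount of 0.1, 50 with no filter and 0 to 3 with 1 library left out.

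Signs turned only for genes that did not pass, and the cause was not tested. On differentiation Gja1 gave -0.18 to 0.61 with 1 library left out and -0.12 without both GFP-named libraries, and S100b -0.63 to 0.000398. Within NT Gja1 gave 0.049 with quantile scaling and -1.10 to 0.77 with 1 library left out, S100b -0.18 to 0.0046, Sparcl1 -1.05 to 1.73 and Aldh1l1 -0.40 to 1.44. In CIC Ndrg2 gave -0.91 to 0.011, and 0.011 without both GFP-named libraries. Between states Aqp4 gave -0.17 with a pseudocount of 5, -0.13 with quantile scaling and -0.44 to 0.92, Gja1 -0.92 to 0.019, and Sparcl1 -0.16 with quantile scaling and -0.64 to 1.44. For FUBP1 Gfap gave 0.056 with a pseudocount of 5 and -0.83 to 0.79, Sparcl1 -0.47 to 2.48, Ndrg2 -0.67 to 0.15, Aldh1l1 -0.27 to 1.58, and Agt -0.004045 with a pseudocount of 5 and -0.73 to 0.96.

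With 5 as the pseudocount S100b passed in CIC (1.33 log2 units, adjusted p = 0.0464), and with quantile scaling Gfap (3.29) and Ndrg2 (4.57) passed within NT (adjusted p = 0.0462 each). Replicate numbers pair no libraries. Blocks by name were also tried for differentiation: GFP with GFP-D, FUBP1 with FUBP1-D and CIC with CIC-D. This fit held these 6 libraries only, without the NT libraries that have no such pair. In it 3524 rows and 6 of the 9 genes rose or fell, Aldh1l1 included (1.71 log2 units, adjusted p = 0.036). Deviations of GFP and GFP-D from the NT means of their states had a correlation of 0.35 over 11968 rows. Of the 46 other astrocyte genes, 21 to 28 rose with 1 library left out and 30 without both GFP-named libraries. Unknown depth limits low values such as those of S100b.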
